A study of Homo sapiens and Mus musculus with 12 samples.

Results

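Genes for numbered C2H2 zinc finger proteins were examined in 2 count tables, 1 from mouse splenic NK cells with and without Ehmt2 and 1 from human NK92MI cells with and without an EHMT2 inhibitor. Members were the rows whose symbol is Zfp (mouse) or ZNF (human) followed by a number alone, leaving out Zfp644, Zfp683 and Zfp36 in mouse and ZNF644 and ZNF683 in human. They were chosen by a measured value, a mean of at least 10 CPM (counts scaled to the raw library total) over the 6 libraries of the table, which is given here as a description only. This gave 368 genes of the 40325 rows of both tables, 180 of 22021 in mouse and 188 of 18304 in human. The family had 333 such rows in mouse and 326 in human, whatever their level. The threshold fell between Zfp1 (mean 10.2 CPM) and Zfp420 (10.3 CPM) on its inner side and Zfp27 (9.96 CPM) and Zfp958 (9.96 CPM) on its outer side in mouse. In human it fell between ZNF70 (10.1 CPM) and ZNF875 (10.2 CPM) inside and ZNF566 (9.87 CPM) and ZNF44 (9.84 CPM) outside. Because the mean covers both groups, a gene could pass through 1 group only. In mouse 4 members had a group mean under 10 CPM, and in human 10 members did.

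NK cells were sorted from the spleens of WT mice, which are Ehmt2 flox/flox, and of KO mice, which are Ehmt2 flox/flox and also carry Ncr1-iCre, with 3 libraries in each group. All mice were on a C57BL/6J background and between 8 and 12 weeks of age. The Cre recombinase is driven by the gene of NKp46, so that deletion is limited to cells that have expressed it. The genotype label of the KO samples reads Ezh2-KO, whereas their titles name EHMT2, and the titles were followed here. NK92MI, an IL-2-independent human NK cell line, was treated with BIX-01294, an inhibitor of EHMT2, or with its solvent DMSO, with 3 libraries in each group. Other NK92MI assays used 0.25 μM BIX-01294 over 5 days. The sources used here do not state the dose and time of these libraries separately. The 3 control columns are headed CON, and CON 1 to CON 3 in the text are those columns, which nothing ties to the numbered DMSO samples. They also do not say whether the 3 libraries of a group came from separate mice or cultures, so p-values measure the spread between these libraries, which may be technical.

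C2H2 zinc finger proteins read DNA through tandem fingers, each of which folds around a zinc ion held by a pair of cysteines and a pair of histidines. Many of them carry a KRAB domain at their N-terminus, which binds TRIM28 (KAP1), the scaffold that brings the H3K9 methyltransferase SETDB1, HP1 proteins and the NuRD deacetylase complex to the site the fingers have bound. EHMT2 (G9a) is another H3K9 methyltransferase and writes the mono- and dimethyl marks, mainly in euchromatin. The genes lie in clusters that have expanded through tandem duplication, on human chromosome 19 above all, and the clusters themselves carry H3K9 methylation in many cell types.

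A match to the KRAB domain of ZNF10 was found in 83 of the 180 mouse members and in 105 of the 188 human members. The remaining 97 and 83 members had no such match, and they include transcriptional activators and proteins that act in translation or in RNA processing. The name repressor thus does not hold for all members. The match is one of sequence and does not show which members repress, and a member without it can act in silencing, as Zfp638 does. Some members without a match, such as ZNF638 and ZNF330, have no finger of the canonical spacing. A SCAN domain, a dimerization module, was matched in 8 mouse and 13 human members. The median number of fingers per protein was 11 in KRAB members of both species and 8 in the other members of both species. Members were most frequent on chromosome 7 in mouse (42 members) and on chromosome 19 in human (72 members).

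The coding DNA of the KRAB A box, the stretch that contacts TRIM28, is shown for 4 KRAB members that were higher in KO NK cells, because this box is the feature by which the members are split in the results. Each run covers 120 bases (40 codons) of 1 coding exon of GRCm38, read on the strand of the gene, and capitals mark the 56 bases that are the same in these 4 genes. Zfp950 is read from chr19:61127439-61127558 on the minus strand, Zfp707 from chr15:75973088-75973207 on the plus strand, Zfp715 from chr7:43301612-43301731 on the minus strand and Zfp51 from chr17:21461667-21461786 on the plus strand.
Zfp950: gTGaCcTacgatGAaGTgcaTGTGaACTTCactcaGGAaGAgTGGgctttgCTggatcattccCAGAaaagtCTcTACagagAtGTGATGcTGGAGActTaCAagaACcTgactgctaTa
Zfp707: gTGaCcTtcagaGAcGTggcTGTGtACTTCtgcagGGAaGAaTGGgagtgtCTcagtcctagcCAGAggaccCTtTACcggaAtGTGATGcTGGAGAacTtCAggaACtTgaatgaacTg
Zfp715: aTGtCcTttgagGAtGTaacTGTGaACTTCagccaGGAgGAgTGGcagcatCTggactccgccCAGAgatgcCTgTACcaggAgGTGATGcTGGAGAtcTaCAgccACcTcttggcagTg
Zfp51: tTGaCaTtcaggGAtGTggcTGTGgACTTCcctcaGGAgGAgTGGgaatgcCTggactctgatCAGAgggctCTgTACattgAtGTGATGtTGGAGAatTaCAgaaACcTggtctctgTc
Any pair of these 4 boxes shared between 76 and 81 of the 120 bases.

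The same box is shown for 4 human KRAB members, of which ZNF805 and ZNF264 were higher and ZNF45 and ZNF84 lower after BIX-01294, so that members of both directions can be set side by side. Each run covers 120 bases of 1 coding exon of GRCh38, and capitals mark the 65 bases that are the same in these 4 genes. ZNF805 is read from chr19:57243929-57244048 on the plus strand, ZNF264 from chr19:57193881-57194000 on the plus strand, ZNF45 from chr19:43919574-43919693 on the minus strand and ZNF84 from chr12:133047961-133048080 on the plus strand.
ZNF805: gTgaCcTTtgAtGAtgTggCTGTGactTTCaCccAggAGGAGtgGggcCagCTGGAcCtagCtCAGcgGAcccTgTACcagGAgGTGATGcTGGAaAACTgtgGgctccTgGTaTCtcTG
ZNF264: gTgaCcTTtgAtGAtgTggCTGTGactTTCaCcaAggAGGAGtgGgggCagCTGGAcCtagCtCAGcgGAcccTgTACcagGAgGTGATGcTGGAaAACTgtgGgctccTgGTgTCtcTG
ZNF45: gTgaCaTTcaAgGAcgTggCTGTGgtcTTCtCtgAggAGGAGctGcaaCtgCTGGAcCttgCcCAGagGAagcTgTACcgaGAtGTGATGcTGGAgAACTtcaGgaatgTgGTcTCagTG
ZNF84: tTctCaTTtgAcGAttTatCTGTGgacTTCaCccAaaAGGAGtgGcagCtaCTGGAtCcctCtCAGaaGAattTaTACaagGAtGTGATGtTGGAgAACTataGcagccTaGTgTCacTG
ZNF805 and ZNF264, which are neighbours, shared 117 of the 120 bases and 85.3% of their protein residues, whereas ZNF45 and ZNF84 shared 78 bases and 47.5% of their residues.

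Library totals lay between 25891680 (WT 2) and 37438868 counts in mouse and between 16579469 and 17165446 counts in human. Members took 0.642% to 0.754% of the mouse counts and 0.837% to 0.910% of the human counts. No member had fewer than 208 counts in a mouse library or 120 in a human library. The spread between libraries of a group, as the biological coefficient of variation of the fit, was 18.2% in mouse and 7.55% in human. The targeted gene Ehmt2 averaged 282 ± 5.94 CPM in WT and 150 ± 18.1 CPM in KO libraries (SD, n = 3 each, TMM-normalized CPM here and below), and its log2 fold change of −0.91 passed the test (adjusted p = 0.0162, edgeR's quasi-likelihood test with Benjamini-Hochberg adjustment over 13189 genes). Without KO 2, KO 3 or WT 3 it was no longer called (adjusted p = 0.0986, 0.121 and 0.0587 by edgeR). The paper reports complete deletion at the protein level by Western blot, and the source of the RNA counts left in KO libraries was not tested. The 12 pan-NK markers, Ncr1, Klrb1c and Eomes among them, had counts in every mouse library, and the 8 markers chosen for NK92MI cells had counts in every human library, with sums of 4065 to 4475 CPM in DMSO and 4926 to 6203 CPM in BIX libraries. In mouse the summed level of the pan-NK markers ranged from 7023 to 11695 CPM in WT and from 12971 to 14990 CPM in KO libraries. The summed level of 32 markers of other blood cells (B and T cells, macrophages with monocytes, neutrophils, erythroid and dendritic cells) ranged from 3631 to 8241 CPM in WT and from 1832 to 3445 CPM in KO libraries. Of these 32 markers, 30 had a log2 fold change below 0, 11 were called lower and 1 higher, and the neutrophil markers Elane and Ly6g were at 0 in KO 2 and KO 3. In such bulk libraries fewer cells of a type and less RNA per cell cannot be told apart.

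The first comparison asks how these genes differ between KO and WT NK cells. Most members lay slightly above WT in KO libraries on the TMM scale, and below WT when libraries were scaled to NK markers, and few of them passed the test. The log2 fold change was above 0 in 152 of the 180 members (84.4%), against 51.5% of all 13189 genes tested and 58.4% of the genes tested that also had a mean of at least 10 CPM. The median log2 fold change was 0.20 over the members, 0.01 over all genes tested and 0.06 over those with at least 10 CPM, and 97 of the 180 members lay within 0.25 of 0. At an adjusted p under 0.05, 10 members were higher and 5 lower (8.33% of the members), whereas 11.9% of all genes tested were called, 4.44% higher and 7.43% lower. No member passed the thresholds of the study (adjusted p under 0.01 and an absolute log2 fold change over 0.5) by edgeR, nor did any gene of the table (0% of 13189). The study applied them with DESeq2 and reported genes changed in both directions, more of them lower than higher. Counts by DESeq2 at these thresholds are not given here. By edgeR, 66 members had an unadjusted p under 0.05 (35.8% of all genes did), 56 of them higher and 10 lower, against 15.8% and 20% of all genes.

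These directions are relative to the other genes of each library, and they turned when the libraries were scaled to the 12 pan-NK markers in place of TMM. These markers include Prf1, Tbx21 and Il2rb, which the paper reports as higher in KO NK cells by RT-qPCR. The pan-NK scale is thus not independent of the genotype. On that scale 2 of the 180 members had a log2 fold change above 0 and 66 members were called lower, since the median of all genes moved to −0.76 and that of the members to −0.56. Of all genes tested, 59.8% were called on that scale. Relative to the median of all genes the members were higher by 0.19 on both scales. A change of scale moves all genes of a library alike, so this gap could hardly differ and is no separate check. Leaving out 1 library at a time kept the median of the members between 0.14 (without WT 1) and 0.26 (without WT 2). The count of called members was less stable. It rose to 39 higher and 7 lower without WT 2 and came to 10 and 4 without KO 1, while 1 member was called without WT 1 and 0 without WT 3, KO 2 or KO 3. Of all genes tested, 26.3% were called without WT 2, 15.1% without KO 1 and 0.743% without WT 1. Without WT 3 that share was 0.105%, and without KO 2 or KO 3 it was 0%.

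**Figure D1:**
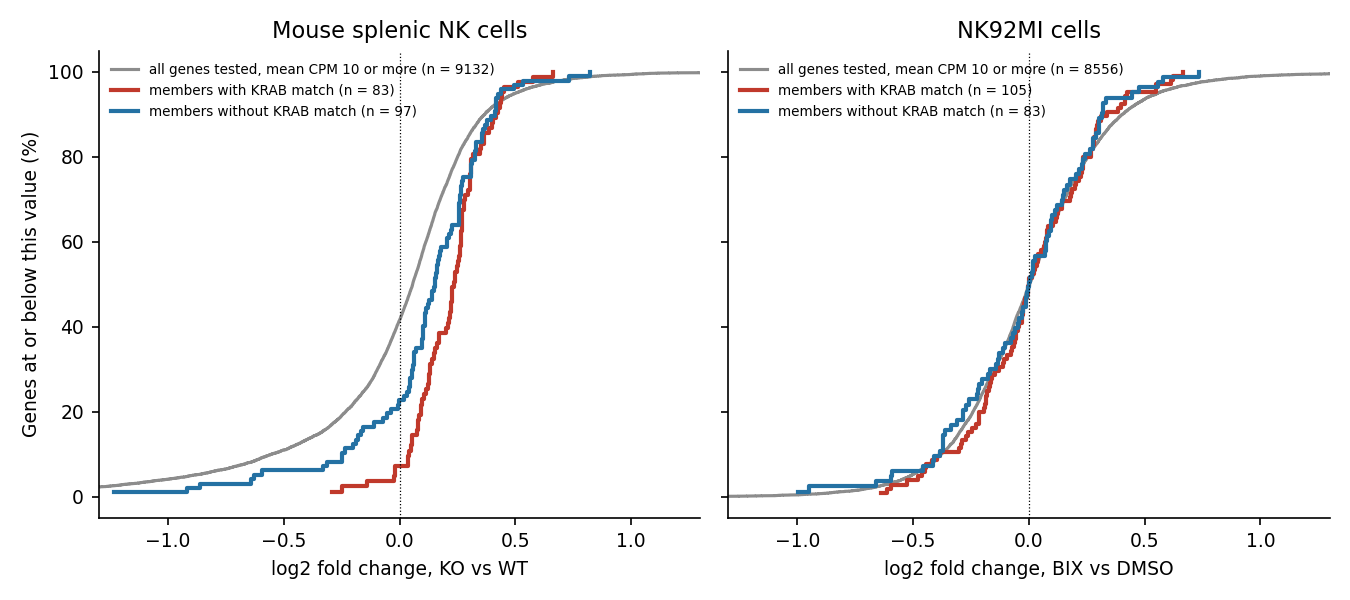
Cumulative distribution of log2 fold changes (x axis) for KRAB members, other members and all genes tested with a mean of at least 10 CPM (y axis, percent of genes at or below the value), for KO against WT in mouse splenic NK cells on the left and BIX-01294 against DMSO in NK92MI cells on the right. In mouse the curves of the members lie to the right of the gray curve, with medians of 0.24 for KRAB members and 0.15 for the others on the TMM scale (both below 0 on the pan-NK scale), while in human the 3 curves nearly coincide, with a median near 0.

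Members were split by the KRAB match, and the difference between the classes was described but not tested. Of the 83 KRAB members, 77 (92.8%) had a log2 fold change above 0, with a median of 0.24 and a range from −0.29 to 0.66. Of the 97 other members, 75 (77.3%) were above 0, with a median of 0.15 and a range from −1.23 to 0.82. Among the KRAB members 7 were called higher and 0 lower by edgeR, and among the other members 3 were called higher and 5 lower, against 4.44% and 7.43% of all genes tested. These counts moved with the tool. DESeq2 called 10 KRAB and 13 other members higher, limma-voom 8 and 6, and edgeR with DESeq2's size factors 4 and 3. With 1 library left out these counts ran from 0 (without WT 1, WT 3, KO 2 or KO 3) to 22 and 17 (without WT 2). Of all genes tested, DESeq2 called 22.2%, limma-voom 11.4% and edgeR with DESeq2's size factors 11.7% in either direction, and 26.3% were called without WT 2. The difference between the medians, 0.08, stayed between 0.05 (without KO 1) and 0.11 (without WT 2) with 1 library left out. It was 0.09 on the pan-NK scale, which moves both classes alike, so this value is no separate check. On that scale none of the KRAB members lay above 0. There 20 KRAB members and 46 others were called lower, where 59.8% of all genes tested were called. KRAB members outside chromosome 7 (65 genes, median 0.24) and those on chromosome 7 (18 genes, median 0.23) had like medians. Levels differed between the classes as well, with a median of 20.7 CPM for KRAB members and 36.2 CPM for the others. The KO and WT libraries did not overlap for 79 members (38.5% of all genes tested), for 68 of them in the higher direction and for 11 in the lower direction, against 19.1% and 19.3% of all genes tested, and 36 of the 68 and 1 of the 11 were KRAB members.

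The summed levels show how the single libraries compared. The KRAB members summed to 1690, 1977 and 1782 CPM in WT 1, WT 2 and WT 3 and to 2059, 2117 and 2166 CPM in KO 1, KO 2 and KO 3, so that every KO library lay above every WT library and WT 2 lay closest to KO. The other members summed to 4736, 5074 and 5024 CPM in the WT libraries and to 5028, 5488 and 5304 CPM in the KO libraries, and here the groups overlapped, since WT 2 lay above KO 1. The pan-NK markers summed to 7023, 11695 and 7348 CPM in the WT libraries and to 12971, 14990 and 14367 CPM in the KO libraries, again with WT 2 nearest to KO. The markers of other blood cells ran the opposite way, at 8241, 3631 and 7486 CPM in WT and 3445, 1832 and 2260 CPM in KO libraries. The part of these marker levels in the direction of the members was not tested.

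**Figure D2:**
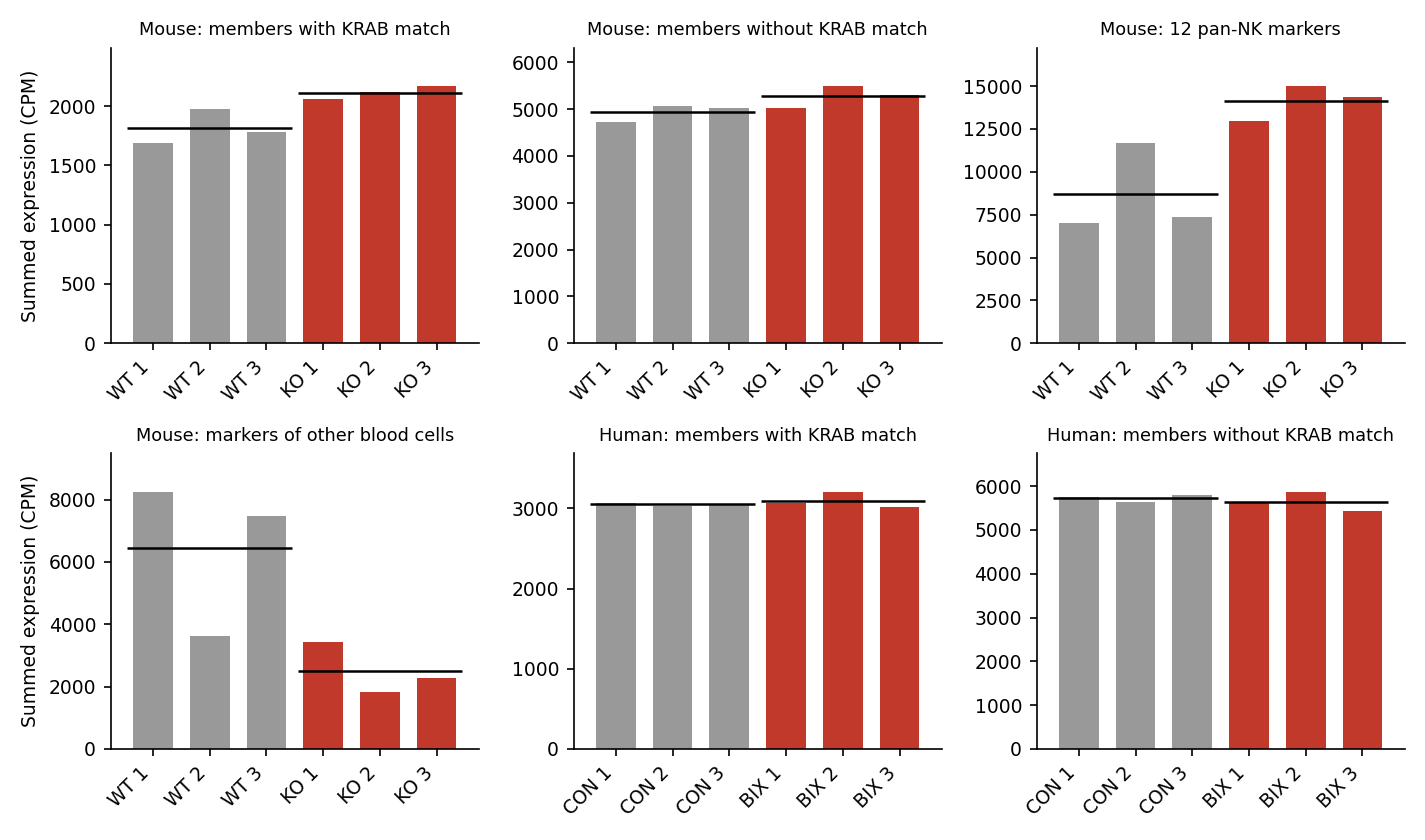
Summed expression in CPM (y axis, from 0) in each library (x axis) for members with and without a KRAB match in both species, and for the 12 pan-NK markers and the markers of other blood cells in mouse, with gray bars for WT or DMSO, red bars for KO or BIX and black lines for the mean of the 3 libraries. In mouse WT 2 sits nearest to the KO libraries in all 4 panels, and in human the BIX libraries spread around the DMSO libraries.

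The KRAB members called in mouse were Zfp950, Zfp707, Zfp715, Zfp51, Zfp317, Zfp235 and Zfp182, all higher in KO NK cells. Zfp950, on chromosome 19 (61053840 to 61140840 of GRCm38, minus strand, 17 fingers), was counted at 51.7, 48.8 and 50.04 CPM in KO 1, KO 2 and KO 3 and at 33.2, 29.3 and 38.4 CPM in WT 1, WT 2 and WT 3. All KO libraries were close to each other and above the highest WT library, and the log2 fold change was 0.58 (SE, the standard error, 0.11, adjusted p = 0.0327 by edgeR). Zfp707, on chromosome 15 (75969123 to 75975868, plus strand, 7 fingers), was counted at 30.4, 31.6 and 29.4 CPM in KO and at 18.0, 24.4 and 15.4 CPM in WT libraries, a log2 fold change of 0.66 (SE 0.17, adjusted p = 0.0465). WT 2 was the highest WT library for Zfp707 and stayed below every KO library.

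Zfp715, on chromosome 7 with 18 fingers, was counted at 36.0, 39.7 and 39.6 CPM in KO and at 24.4, 29.5 and 30.8 CPM in WT libraries, with a log2 fold change of 0.44 (adjusted p = 0.0472 by edgeR). Zfp51, on chromosome 17 with 19 fingers, was counted at 38.1, 36.1 and 41.9 CPM in KO and at 27.3, 31.8 and 26.8 CPM in WT libraries, with a log2 fold change of 0.44 (adjusted p = 0.0452). The groups were separate for both genes, by a gap narrower than the range of the WT libraries. The remaining 3 KRAB members called higher, Zfp317, Zfp235 and Zfp182, had log2 fold changes of 0.39, 0.42 and 0.44. Their adjusted p-values of 0.0484, 0.0486 and 0.0492 by edgeR were just inside the threshold, and Zfp182 lies on the X chromosome. Zfp235 and Zfp182 are outside the 8 of smallest adjusted p and were named after their values were seen. On the pan-NK scale all 7 fell below 0, between −0.37 (Zfp317) and −0.054 (Zfp707), and none of them passed the test there.

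Among the KRAB members with known targets, Zfp809, which silences retroviruses that use the proline tRNA primer binding site, was counted at 26.7, 26.1 and 25.4 CPM in KO and at 17.5, 24.5 and 24.98 CPM in WT libraries. The KO libraries of Zfp809 lay above WT 2 and WT 3 by a small margin and above WT 1 by a wide one, and the log2 fold change of 0.22 did not pass the test (adjusted p = 0.295 by edgeR). Zfp568, which represses a placental promoter of Igf2, had a log2 fold change of 0.37 (adjusted p = 0.0754), Zfp445, which maintains genomic imprints, one of 0.31 (adjusted p = 0.166), and Zfp932, which silences endogenous retroviruses, one of 0.24 (adjusted p = 0.287). Zfp932 shares 55.5% of its 50-base words with other transcripts, so its reads cannot be assigned with certainty. Zfp638, which has no KRAB match and recruits the HUSH complex to unintegrated retroviral DNA, had a log2 fold change of 0.26 (adjusted p = 0.0830). Thus 5 of 5 members on the list of silencers with known targets were above 0 and 0 of 5 were called by edgeR, against 51.5% and 11.9% of all genes tested. On the pan-NK scale all 5 were below 0.

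The members without a KRAB match that were called higher were Zfp579, Zfp574 and Zfp692. Zfp579, on chromosome 7 (4983483 to 4996158, minus strand, 8 fingers), was counted at 63.1, 78.0 and 74.2 CPM in KO and at 35.4, 55.3 and 38.9 CPM in WT libraries, and its log2 fold change of 0.73 was the largest among the members called (SE 0.17, adjusted p = 0.0429 by edgeR). WT 2 was again the WT library closest to KO, and on the pan-NK scale the value of Zfp579 was not past the test (adjusted p = 0.956). Zfp574 (18 fingers) was counted at 59.3, 69.9 and 68.5 CPM in KO and at 46.6, 51.7 and 49.7 CPM in WT libraries, with a log2 fold change of 0.42 (adjusted p = 0.0411). Zfp692 (5 fingers), also known as AREBP, was counted at 32.9, 34.1 and 30.6 CPM in KO and at 21.6, 25.4 and 24.98 CPM in WT libraries, with a log2 fold change of 0.44 (adjusted p = 0.0422). The groups did not overlap for any of the 3 genes.

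The 5 members called lower in KO NK cells had no KRAB match. Zfp366 (DC-SCRIPT), a regulator known from dendritic cells, lies on chromosome 13 (99184823 to 99250656, plus strand) and changed most of all members. It was counted at 11.9, 10.7 and 12.6 CPM in KO and at 27.1, 22.5 and 33.1 CPM in WT libraries, a log2 fold change of −1.23 (SE 0.16, adjusted p = 0.0211 by edgeR), and every KO library was below every WT library by a wide margin. The 4 dendritic cell markers Xcr1, Clec9a, Siglech and Flt3 summed to 201, 156 and 106 CPM in KO and to 470, 272 and 289 CPM in WT libraries, with none at 0. Their part in the lower level of Zfp366 was not tested.

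Zfp710, on chromosome 7 (80024814 to 80094173, plus strand), was counted at 81.3, 70.4 and 66.0 CPM in KO and at 130, 89.3 and 117 CPM in WT libraries, a log2 fold change of −0.63 (SE 0.15, adjusted p = 0.0428 by edgeR). Its groups were separate, with WT 2 closest to KO. Zfp366 and Zfp710 are related, with 11 fingers each and 49.6% of residues shared over the shorter protein, and their first fingers are shown because the pair fell together. Each run is 69 bases (23 codons) of 1 coding exon of GRCm38 on the plus strand, from chr13:99229080-99229148 and chr7:80081965-80082033, and capitals mark the codons of the 2 cysteines and 2 histidines that hold the zinc ion.
Zfp366: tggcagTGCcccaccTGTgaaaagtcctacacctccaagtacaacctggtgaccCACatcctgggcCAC
Zfp710: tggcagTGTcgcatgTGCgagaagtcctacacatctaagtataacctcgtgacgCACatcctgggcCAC
These fingers shared 58 of 69 bases.

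Zfp608 and Zfp609 are large proteins with 1 finger each, of which Zfp609 is known to act with the Integrator complex and the cohesin loader in transcription and Zfp608 is known from thymocytes. Zfp609 was counted at 14.6, 16.1 and 14.97 CPM in KO and at 23.5, 20.7 and 24.6 CPM in WT libraries, with a log2 fold change of −0.59 (adjusted p = 0.0304 by edgeR). Zfp608 was counted at 14.4, 17.5 and 15.3 CPM in KO and at 31.8, 19.4 and 37.7 CPM in WT libraries, with a log2 fold change of −0.92 (adjusted p = 0.0463). The gap between the groups of Zfp608 was narrow, since WT 2 lay far below the other WT libraries. Zfp516, an activator of brown fat genes with 10 fingers, was counted at 22.1, 17.7 and 20.6 CPM in KO and at 39.3, 32.0 and 38.7 CPM in WT libraries, with a log2 fold change of −0.86 (adjusted p = 0.0239). All 5 genes kept their direction with any 1 library left out and on the pan-NK scale.

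**Figure D3:**
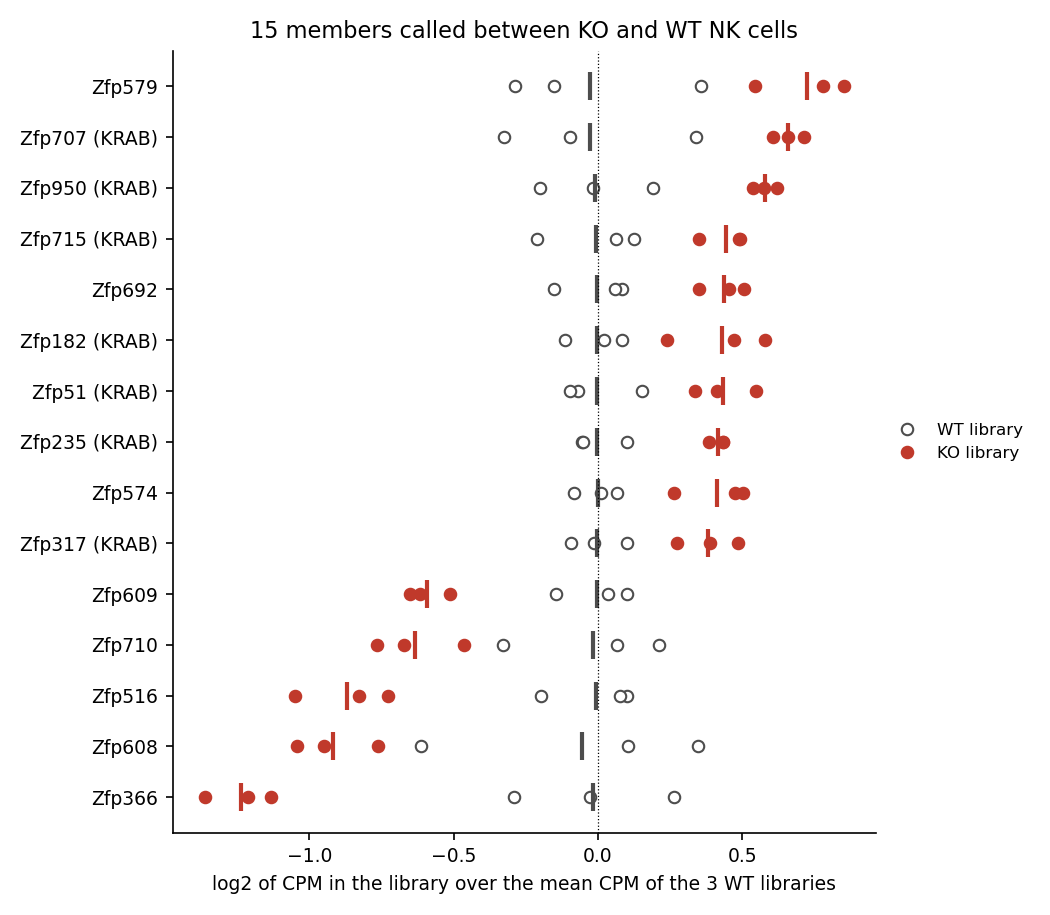
Expression of the 15 members called between KO and WT NK cells in each library, as log2 of the CPM over the mean CPM of the 3 WT libraries (x axis), with open circles for WT libraries, red circles for KO libraries and vertical bars for the group means of the log2 values. The 10 genes at the top have all KO libraries to the right of all WT libraries, the 5 genes at the bottom the reverse, and the values run from −1.23 (Zfp366) to 0.73 (Zfp579) as fitted log2 fold changes on the TMM scale, where on the pan-NK scale 9 of the top 10 fall below 0.

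Counts in this paragraph stand beside all genes tested, of which 51.5% were above 0, 4.44% were called higher and 7.43% lower. Among those with at least 10 CPM, 58.4% were above 0. Of the members that act as transcription factors or in chromatin architecture, 11 of 15 were above 0, 0 were called higher and 2, Zfp608 and Zfp609, lower. Of the members that act on RNA, translation, ubiquitin or cell division, 9 of 13 were above 0 and 0 of 13 were called by edgeR. Within this second list the log2 fold changes furthest from 0 were 0.37 for Zfp830, a splicing-associated protein (adjusted p = 0.0560), −0.33 for Zfp706 (adjusted p = 0.0741) and 0.33 for Zfp598, the ubiquitin ligase of stalled ribosomes (adjusted p = 0.0746). Among the 153 rows under 10 CPM, 12 had no counts and 118 were tested, of which 75 were above 0 with a median log2 fold change of 0.21, 4 called higher and 3 lower. Of the 28 genes on a list of corepressor partners, 18 (64.3%) were above 0. This list is wider than the KRAB pathway, since it also holds Ehmt2, Ehmt1, Wiz, Dnmt1 and Uhrf1. Of the 28, 0 were called higher and 2 lower, and the median of the 28 was 0.04. Those called lower were Ehmt2, the gene deleted in KO mice, and Uhrf1, a reader of H3K9 methylation and hemimethylated DNA. Uhrf1 had a log2 fold change of −0.56 (adjusted p = 0.0269 by edgeR). Trim28, the scaffold of the KRAB pathway, averaged 218 ± 12.1 CPM in WT and 211 ± 8.90 CPM in KO libraries (SD, n = 3 each), with a log2 fold change of −0.049 (adjusted p = 0.685). On the pan-NK scale Trim28 came to −0.83 and was called lower (adjusted p = 0.0145 by edgeR), as were 19 of the 28 genes and 59.8% of all genes tested in either direction.

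The second comparison asks how the human genes respond to the inhibitor in NK92MI cells. Here members changed in both directions, in shares near those of all genes tested. At an adjusted p under 0.05 by edgeR, 35 of the 188 members were higher and 31 lower (35.1%), whereas 36.9% of all 12727 genes tested were called, 18.4% in each direction, and 43.7% of those with at least 10 CPM. The log2 fold change was above 0 in 93 members (49.5%), against 49% of all genes tested, with a median of −0.00068 against −0.0083 over all genes tested, and 116 members lay within 0.25 of 0. At the thresholds of the study 8 members were higher and 9 lower, against 11.7% of all genes tested, 6.24% higher and 5.43% lower. An unadjusted p under 0.05 was reached by 83 members and by 46.1% of all genes. The BIX and DMSO libraries did not overlap for 98 members (47.9% of all genes), 53 in the higher and 45 in the lower direction, against 24.1% and 23.9% of all genes tested. The members summed to 8712, 9073 and 8458 CPM in BIX 1, BIX 2 and BIX 3 and to 8817, 8681 and 8843 CPM in the DMSO libraries, so that the BIX libraries lay on both sides of the DMSO libraries. Without BIX 1 the calls fell to 22 higher and 22 lower, without CON 1 to 22 and 21, and without CON 3 to 22 and 26. Of all genes tested, 26.7%, 28.1% and 28.2% were called in these fits.

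KRAB members did not lean to a side in NK92MI cells. Of 105 KRAB members, 17 were called higher and 14 lower, with a median of −0.00028, and of the 83 others, 18 were called higher and 17 lower, with a median of −0.0011. On chromosome 19, 12 of the 72 members were called higher and 15 lower. Of all genes tested 18.4% were called in each direction. Members without a KRAB match and with fewer than 10 fingers were called in 27 of 53 cases (50.9%), against 36.9% of all genes tested and 43.7% of those with at least 10 CPM. They also had higher levels, with a median of 63.4 CPM against 19.99 CPM for KRAB members. The part of the level in this share was not tested. Among the 138 human rows under 10 CPM, 108 were tested, of which 44 were above 0 with a median log2 fold change of −0.14, 5 called higher and 9 lower.

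Of the 8 members of smallest adjusted p that rose, 6 had a KRAB match. ZNF805, on chromosome 19 (57240632 to 57262728 of GRCh38, plus strand, 13 fingers), was counted at 50.6, 56.1 and 45.9 CPM in BIX and at 35.7, 28.8 and 31.8 CPM in DMSO libraries, a log2 fold change of 0.66 (SE 0.10, adjusted p = 0.000171 by edgeR). Its neighbour ZNF264 (57191500 to 57222846, plus strand, 13 fingers) was counted at 46.6, 60.1 and 54.2 CPM in BIX and at 35.4, 37.0 and 37.6 CPM in DMSO libraries, a log2 fold change of 0.55 (adjusted p = 0.000494). The groups of both genes were well apart. ZNF805 shares 16.8% of its 50-base words with other transcripts and ZNF264 2.8%, so part of the reads of ZNF805 may be shared with relatives.

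ZNF267, on chromosome 16, was the most highly counted of the 8, at 143, 144 and 138 CPM in BIX and 102, 102 and 113 CPM in DMSO libraries, with a log2 fold change of 0.42 (adjusted p = 0.000222 by edgeR). ZNF823, on chromosome 19, was counted at 23.6, 20.6 and 22.4 CPM in BIX and at 13.9, 16.0 and 13.4 CPM in DMSO libraries, with a log2 fold change of 0.62 (adjusted p = 0.000573). ZNF436, on chromosome 1, was counted at 26.9, 31.1 and 23.4 CPM in BIX and at 16.7, 19.2 and 17.3 CPM in DMSO libraries, with a log2 fold change of 0.61 (adjusted p = 0.000970). All BIX libraries were above all DMSO libraries for these 3 genes. ZNF490 had a log2 fold change of 0.55 (adjusted p = 0.00319), but 51.1% of its exon bases lie in exons of other genes on the same strand and 56.6% of its 50-base words are shared, so its value is uncertain.

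Of the KRAB members that fell, ZNF45, on chromosome 19 (43912624 to 43935282, minus strand, 15 fingers), was counted at 18.3, 17.5 and 18.4 CPM in BIX and at 27.1, 28.2 and 26.6 CPM in DMSO libraries, a log2 fold change of −0.60 (SE 0.09, adjusted p = 0.000201 by edgeR). ZNF84, on chromosome 12 with 19 fingers, was counted at 14.7, 18.5 and 13.5 CPM in BIX and at 25.1, 21.3 and 26.4 CPM in DMSO libraries, with a log2 fold change of −0.64 (adjusted p = 0.00153). ZNF84 was picked for its sequence after its values were seen, since it was not among the 8 of smallest adjusted p. The groups of both genes were separate, with a spread in ZNF84 wider than in ZNF45. The human silencers with known targets did not pass the test, with log2 fold changes of 0.12 for ZNF274, which brings SETDB1 to the 3' ends of zinc finger genes (adjusted p = 0.340), −0.15 for ZNF445 (adjusted p = 0.220), −0.10 for ZNF202 (adjusted p = 0.464) and 0.16 for ZNF638 (adjusted p = 0.0903).

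The 3 largest changes in NK92MI cells, in ZNF76, ZNF692 and ZNF622, were in members without a KRAB match. ZNF76, a close relative of ZNF143 that binds the same promoter element, lies on chromosome 6 (35258909 to 35295985, plus strand, 7 fingers). It was counted at 18.4, 16.5 and 17.1 CPM in BIX and at 33.4, 36.5 and 33.8 CPM in DMSO libraries, a log2 fold change of −0.998 (SE 0.09, adjusted p = 2.95e-06 by edgeR). ZNF692 (AREBP), on chromosome 1 (248850006 to 248859144, minus strand, 5 fingers), was counted at 17.6, 15.3 and 17.4 CPM in BIX and at 30.5, 34.3 and 32.3 CPM in DMSO libraries, a log2 fold change of −0.95 (SE 0.10, adjusted p = 7.32e-06). The libraries within a group lay close together for both genes, far from those of the other group. ZNF276, ZNF865 and ZNF831 fell as well, with log2 fold changes of −0.66, −0.60 and −0.59 (adjusted p = 0.000322, 0.000711 and 0.000441), and 32.3% of the exon bases of ZNF276 lie opposite exons of another gene, so that its reads depend on the strand setting of the counting, which is not stated.

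Among the human transcription factors and chromatin proteins 1 of 14 was called higher and 3 lower, against 18.4% of all genes tested in each direction. ZNF281, a regulator of pluripotency genes, was higher with a log2 fold change of 0.30 (adjusted p = 0.00910 by edgeR), and ZNF335, a subunit of an H3K4 methyltransferase complex, and ZNF687, a partner of ZMYND8, fell along with ZNF76, with values of −0.34 (adjusted p = 0.00354) and −0.27 (adjusted p = 0.0179). ZNF143 itself had a log2 fold change of −0.14 (adjusted p = 0.332).

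Of the members that act on RNA, translation, ubiquitin or cell division, 9 of 11 were called, 6 higher and 3 lower, against 36.9% of all genes tested and 43.7% of those with at least 10 CPM. The list was drawn up with earlier results of these data known. ZNF622, which acts in the late maturation of the large ribosomal subunit, was counted at 58.6, 50.6 and 71.9 CPM in BIX and at 35.8, 39.8 and 33.2 CPM in DMSO libraries, and its log2 fold change of 0.73 (SE 0.12, adjusted p = 0.000251 by edgeR) was the largest positive value among all 188 members. The BIX libraries of ZNF622 differed among themselves but all lay above the DMSO libraries. The splicing-associated ZNF326 and ZNF830, the double-stranded RNA binder ZNF346, the SUMO ligase ZNF451 and ZNF706 rose by 0.28, 0.29, 0.28, 0.31 and 0.22 on the log2 scale (adjusted p = 0.00576, 0.00773, 0.0135, 0.0145 and 0.0226). ZNF207 (BuGZ), a spindle assembly factor, was the most highly counted member, at 383, 396 and 376 CPM in BIX and 517, 456 and 523 CPM in DMSO libraries, with a log2 fold change of −0.37 (adjusted p = 0.000663). ZNF598, the ubiquitin ligase of stalled ribosomes, and the nucleolar ZNF330 fell with values of −0.36 and −0.29 (adjusted p = 0.00225 and 0.00239). ZNF207 shares 20.7% of its 50-base words with other transcripts. Outside this list, ZNF473, which acts in histone mRNA processing, fell with a value of −0.46 (adjusted p = 0.00133), and ZNF654 rose with a value of 0.58 (adjusted p = 0.000241).

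**Figure D4:**
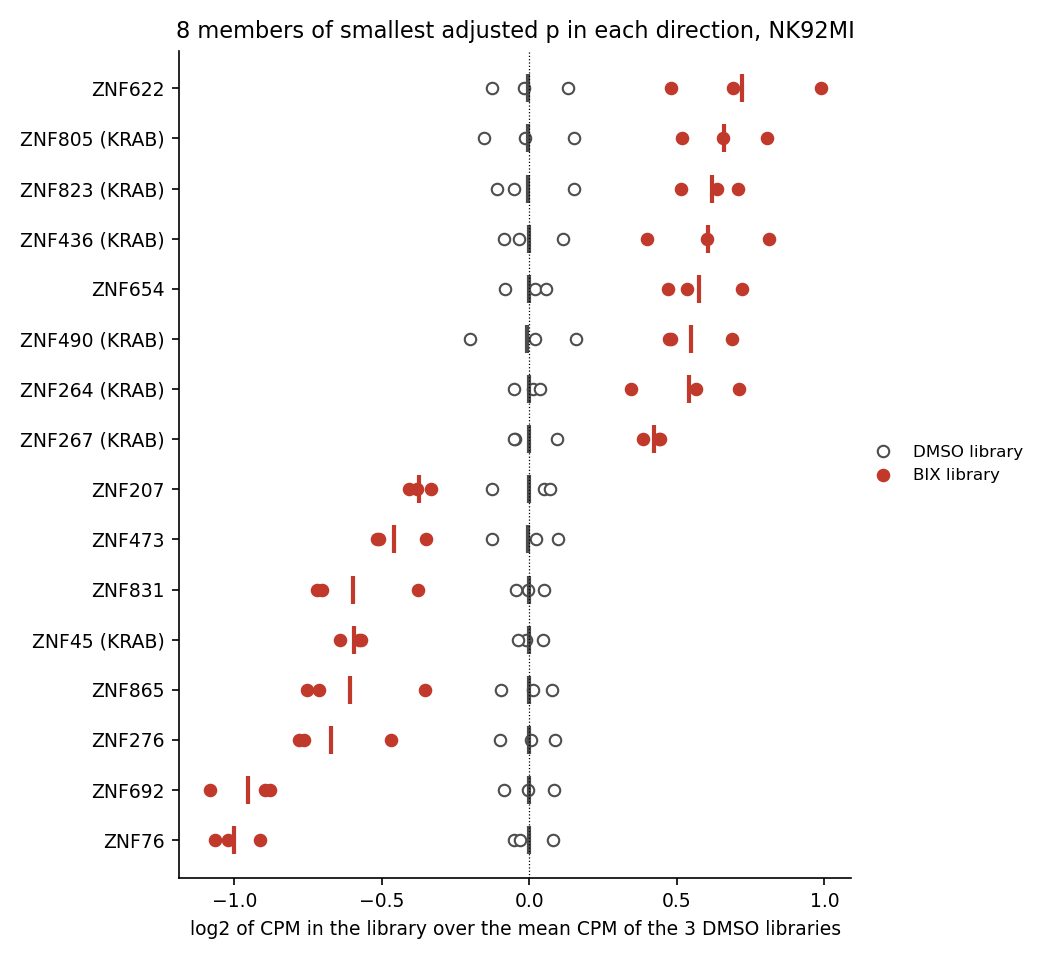
Expression of the 8 members of smallest adjusted p in each direction in NK92MI cells in each library, as log2 of the CPM over the mean CPM of the 3 DMSO libraries (x axis), with open circles for DMSO libraries, red circles for BIX libraries and vertical bars for the group means of the log2 values. The groups are separate for all 16 genes, from ZNF622 (fitted log2 fold change 0.73) at the top to ZNF76 (−0.998) at the bottom.

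Of the 28 genes on the list of corepressor partners, 4 were called higher and 10 lower in NK92MI cells, where 18.4% of all genes tested were called in each direction. EHMT2, the target of the inhibitor, was counted at 38.5 ± 2.39 CPM in BIX and 57.7 ± 3.66 CPM in DMSO libraries (SD, n = 3 each), with a log2 fold change of −0.58 (adjusted p = 0.000101 by edgeR), and WIZ, the zinc finger subunit of the EHMT complex, fell by 0.50 on the log2 scale (adjusted p = 0.000147). TRIM28 fell with a value of −0.35 (adjusted p = 0.00115), ATF7IP, the partner of SETDB1, with −0.47 (adjusted p = 0.000727), the maintenance DNA methyltransferase DNMT1 with −0.43 (adjusted p = 0.000211) and MTA1 of the NuRD complex with −0.46 (adjusted p = 0.000123). MTA2, HDAC1, HDAC2 and TASOR, a HUSH subunit, fell by 0.19 to 0.27 on the log2 scale. SUMO2, RBBP4 and MPHOSPH8 were higher, with log2 fold changes of 0.30, 0.17 and 0.21. SETDB1 did not pass the test (log2 fold change −0.20, adjusted p = 0.0950).

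The last comparison sets the species side by side for members that carry the same number, which share no samples. Of 89 such pairs, 82 had proteins identical at 50% or more of the residues of the shorter one, with a median of 86.6%. The mouse gene was above 0 in 73 of these 82 pairs and the human gene in 39, both were above 0 in 35 and both below 0 in 5. The mouse gene was called in 7 pairs and the human gene in 29, against 11.9% and 36.9% of all genes tested. Over the 82 pairs the log2 fold changes had a Pearson correlation of −0.139 and a Spearman correlation of −0.163, given as a description across genes, which share libraries within a species and are not independent replicates.

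In 3 pairs both genes were called. ZNF574 was counted at 34.4, 34.8 and 30.6 CPM in BIX and at 26.5, 25.1 and 29.3 CPM in DMSO libraries (log2 fold change 0.30, adjusted p = 0.0218 by edgeR), higher like mouse Zfp574 (0.42). ZNF710 was counted at 20.9, 23.3 and 21.7 CPM in BIX and at 15.7, 20.3 and 16.9 CPM in DMSO libraries (log2 fold change 0.32, adjusted p = 0.0395), opposite to mouse Zfp710 (−0.63). ZNF692 (−0.95) was also opposite to mouse Zfp692 (0.44). On the pan-NK scale Zfp574 and Zfp692 came to −0.35 and −0.32, and neither was called there (adjusted p = 0.224 and 0.285 by edgeR). For the pairs of ZNF574 and of ZNF692 the sign of the mouse gene thus depended on the scaling, so like or unlike is not settled. The pair of ZNF710 was unlike on both scales and with any 1 library left out, but its calls were not stable. ZNF710 was no longer called without BIX 1, BIX 2, CON 1 or CON 3, nor Zfp710 without KO 2, KO 3, WT 1 or WT 3. ZNF574 lost its call without BIX 1, CON 1 or CON 2. Zfp574 lost its call without KO 2, KO 3, WT 1 or WT 3, and Zfp692 without these or KO 1. ZNF692 stayed called with any 1 library left out. Loss of the gene in mouse and inhibition of the enzyme in a human line differ in species, cell type and time as well, and these cannot be told apart here.

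**Figure D5:**
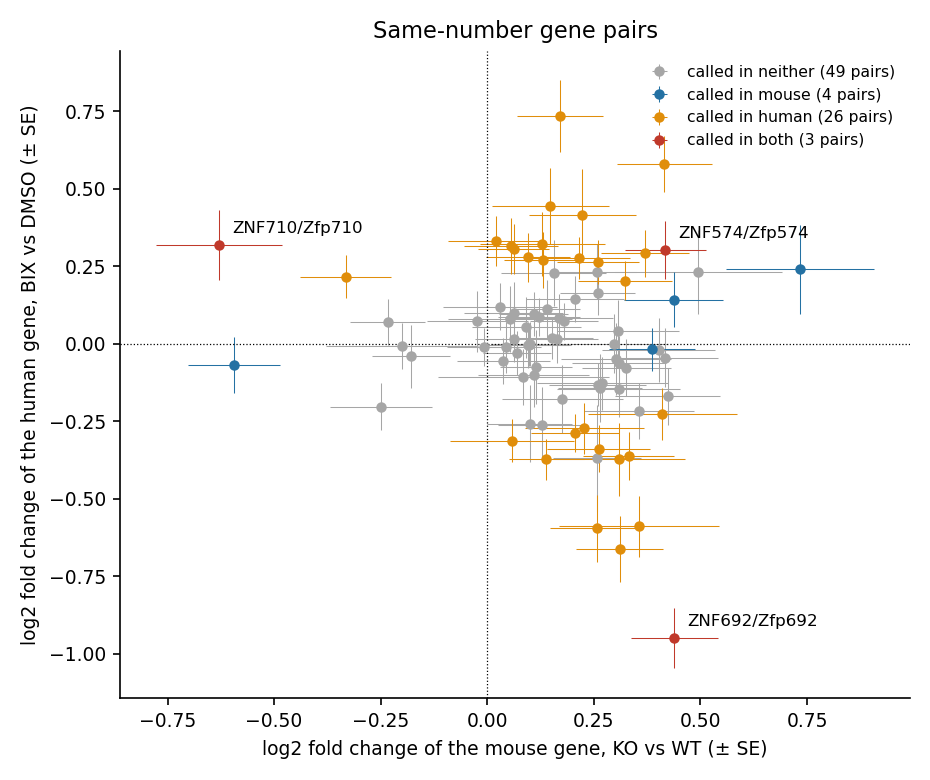
Log2 fold change of the mouse gene between KO and WT NK cells (x axis) and of the human gene between BIX-01294 and DMSO in NK92MI cells (y axis) for 82 same-number pairs, with bars for the standard error and colors for the species in which the gene was called. Most points lie to the right of 0 on the x axis (73 of 82) and on both sides of 0 on the y axis, and ZNF574, ZNF692 and ZNF710 are the 3 pairs called in both.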

How the data were processed

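RNA-seq libraries of 6 mouse and 6 human samples were analysed. Per the labels and the study's methods the authors trimmed reads with fastp 0.23.4, aligned them with STAR 2.7.11b (2 mismatches allowed) to GRCm38 (mouse) or GRCh38 (human) and made counts with HTSeq 2.0.3, tools and versions that stand in the submitters' processing notes. The deposited values are whole-number counts, 1 row per gene, that were not normalized. The annotation release and the strand setting are not given in the sources used here, so reads of overlapping or antisense genes cannot be told apart. The control columns of the human table are named CON and were taken as the DMSO group, since their numbers are not tied to the numbered DMSO samples.

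Counts were fitted per species with edgeR 4.0.16 in R 4.3.3 (quasi-likelihood test, TMM, filterByExpr, Benjamini-Hochberg over all genes tested, called at an adjusted p under 0.05), and only members are reported. DESeq2 1.42.0, limma-voom (limma 3.58.1), other scalings and filters, the replicate number as a block and each library left out in turn were alternatives, with the unadjusted p-values and the alternatives of the KRAB split added after seeing the data. The code was tested on simulated data. Positions, proteins and coding DNA came from GENCODE 44 (GRCh38) and M21 (GRCm38), and all members matched. A KRAB match was a phmmer hit to the first 90 residues of ZNF10 at an E-value of at most 0.001, so divergent domains count as no match. Named are the 8 members of smallest adjusted p in each direction among those called, members on the role lists that the text turns on, pairs called in both species, rows at the threshold and called partners, while Trim28, SETDB1, ZNF84, Zfp235 and Zfp182 were added after their values were seen. The value of 1 called partner is not reported here. Members and lists were chosen with earlier results of these data known.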

Additional observations from a re-analysis of the deposited data

How the results depend on the processing

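In mouse, DESeq2 called 23 members higher and 8 lower, the fit with the replicate number as a block 27 higher and 7 lower, and pan-NK scaling 0 and 66. Of all genes tested, these fits called 22.2%, 24.4% and 59.8%. By edgeR, unadjusted p-values gave 56 and 10, and the thresholds of the study, which used DESeq2, gave 0 and 0. A minimum of 5 CPM gave 8 members lower and one of 20 CPM gave 3. With 1 library left out the calls ranged from 0 to 39 higher and from 0 to 7 lower, the median of the members from 0.14 to 0.26 and the partners from 0 to 3 higher and 0 to 2 lower. The share of all genes tested that was called then ran from 0% (without KO 2 or KO 3) to 26.3% (without WT 2). The sources used here do not say whether the replicate numbers pair the samples. The deviations of same-numbered libraries correlated at 0.0656, 0.314 and −0.357 over genes, and those of unlike-numbered libraries between −0.337 and 0.309. With so few libraries these values cannot decide whether the numbers pair the samples. Pan-NK scaling turned the median of the members to −0.561 and the log2 fold changes of Zfp950 (−0.22), Zfp574 (−0.35), Zfp692 (−0.32), Zfp51 (−0.31), Zfp707 (−0.054), Zfp715 (−0.32), Zfp317 (−0.37), Zfp235 (−0.34), Zfp182 (−0.33), Zfp445 (−0.45), Zfp568 (−0.39), Zfp638 (−0.52), Zfp809 (−0.52), Zfp932 (−0.51), Zfp598 (−0.44) and Zfp830 (−0.38), and called 19 partners lower. Partners called higher came to 1 by DESeq2 and 3 with the block, which called 11 KRAB and 16 other members higher. In human, the thresholds of the study gave 8 members higher and 9 lower (11.7% of all genes tested were called), and library totals gave 2 partners higher. With 1 library left out the members ranged from 22 to 39 higher and 21 to 38 lower, and the partners from 0 to 5 higher and 9 to 13 lower. The share of all genes tested that was called then ran from 26.7% (without BIX 1) to 38.5% (without BIX 2). The median of the members ran from −0.0203 to 0.0321 and was above 0 without BIX 1, BIX 3, CON 1 or CON 3. No paired analysis was possible in human because the numbers of the control columns are not tied to the DMSO samples. The cause of these changes was not tested. The other alternatives kept the counts of members and of partners called within 1.5 times the reported ones. Of the values of named genes under the alternatives, 259 kept their direction and their side of the threshold in mouse and 544 in human, while 77 in mouse and 41 in human kept the direction but were no longer called. Another 12 in mouse and 3 in human kept the direction and became called, Trim28 and Zfp706 on the pan-NK scale among them. The 16 that changed direction were all in mouse and on the pan-NK scale. Depth and the number of libraries were not varied separately, so their part in the calls was not tested.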
